A study of Mus musculus with 6 samples.

Results

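The transcripts described here encode 7 enzymes that make NADPH or feed the pathways that make it: Pgls, Pgd, Taldo1 and Tkt of the pentose phosphate pathway, the malic enzyme Me1, and the NADP-dependent isocitrate dehydrogenases Idh1 and Idh2. They were taken by gene symbol from a table of 30438 symbols, and all 7 were present and among the 14618 genes with enough counts to test. RNA was sequenced from HEI-OC1, a conditionally immortalised line from the mouse organ of Corti used to study damage to hair cells, in 2 groups. The first was 3 libraries of HEI-OC1 cells with the genotype Nrf2 knockout, here Nrf2 KO, and the other was 3 libraries of the parental line, labelled WT, here the control. Both groups grew at 33 °C under 10% CO2 in DMEM with 10% FBS and penicillin-streptomycin, and the labels record no cisplatin or other drug in either. The labels name neither the site of the edit nor whether the knockout line is a clone, and they do not say that replicates were separate cultures, so p-values measure the spread between these libraries, which may be technical. The submitters made the libraries to look for markers of how losing Nrf2 raises resistance to cisplatin.

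NADPH is the electron donor that glutathione reductase and thioredoxin reductase use to keep glutathione and thioredoxin reduced, and fatty acid and sterol synthesis draw on the same pool. The oxidative arm of the pentose phosphate pathway, malic enzyme and the NADP-dependent isocitrate dehydrogenases are its main enzymatic sources, the first in the cytosol and the last in the cytosol and peroxisome (Idh1) or the mitochondrion (Idh2). NRF2, the transcription factor encoded by Nfe2l2, is known from human and mouse cells to raise transcription of Pgd, Taldo1, Tkt and Me1. In the mouse cochlea Idh2 is known as a mitochondrial source of NADPH whose loss worsens age-related hearing loss.

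Library totals ran from 29130007 to 51285343 counts in the Nrf2 KO group and from 38636523 to 44098578 in the control group. Nrf2 KO replicate 1, the shallowest library, stood apart: across genes, log2 CPM (counts scaled to library size) had a Pearson's r of 0.931 and 0.939 with the other Nrf2 KO libraries, which had 0.995 with each other, while control libraries had 0.979 to 0.993 among themselves. Its level was under 1 in 2 of the lower of the other Nrf2 KO libraries for 15.4% of tested genes. RNA of the targeted gene, Nfe2l2, was more abundant in the Nrf2 KO group than in the control group. It was at 395.7, 235.6 and 204.5 CPM in Nrf2 KO replicates 1, 2 and 3, against 74.2, 126.5 and 96.7 CPM in control libraries. Counts per gene do not show whether NRF2 protein was lost, and the site of the edit is not named. The knockout itself was therefore not tested, and directions below refer to libraries by their label only. By edgeR's quasi-likelihood test Nfe2l2 RNA rose by 1.49 on the log2 scale (SE 0.33, adjusted p = 0.0456). That call was lost without any 1 of the control libraries or without Nrf2 KO replicate 2 or 3 (adjusted p from 0.0784 to 0.202). Markers of the labelled cochlear cells were partly at 0 and partly higher: Sox2, Atoh1 and Slc26a5 had 0 counts in all 6 libraries. Of 8 hair cell markers 2 could be tested and 1 was called higher, beside 4.83% of all genes, and their sum was 62.5 to 76.5 CPM in Nrf2 KO and 33.1 to 45.2 CPM in control libraries. Of 8 supporting and prosensory markers 5 could be tested and 2 were called higher, beside the same 4.83%. Their sums were 347.5 to 449.9 CPM in Nrf2 KO and 233.0 to 251.3 CPM in control libraries. Of 8 fibroblast markers 6 could be tested and 4 were called higher, also beside 4.83%. Their sums were 6875 to 8326 CPM in Nrf2 KO and 5407 to 6333 CPM in control libraries. No marker of the other lists was called higher. Of 2 tested leukocyte markers 1 was called lower, beside 3.45% of all genes. The tested neuron and glia, endothelial and melanocyte markers gave 0 calls. Of 5 epithelial markers 0 could be tested, with sums of at most 0.39 CPM in any library. The part of these marker levels in the results below was not tested.

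None of the 7 enzymes passed the test with all 6 libraries. By edgeR 0 were higher and 0 lower, against 4.83% and 3.45% of all genes tested. None had an unadjusted p under 0.05 (0 of 7), beside 13.4% of genes higher and 11.6% lower by that rule. DESeq2 also called 0 of the 7, beside 10.9% of genes higher and 9.02% lower, and limma-voom 0, beside 5.14% and 4.12%. A block for the replicate number gave 0 calls too, beside 10.4% and 7.92%, as did the fit lacking Nrf2 KO replicate 1, beside 15.6% and 14.5%. The log2 fold changes were positive for 4 enzymes and negative for 3, with a median of 0.19 beside 0.04 over all tested genes. Missing the threshold does not show that the levels were alike, because the 95% intervals were wide for Pgd, Taldo1, Idh1 and Idh2. Summed over the 7 transcripts, the level was 819.4, 1289 and 1326 CPM in Nrf2 KO libraries 1, 2 and 3, against 973.0, 1295 and 1235 CPM in control libraries, and the groups overlapped. Replicate 1 was the lowest library of its group in this sum in both groups.

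**Figure D1:**
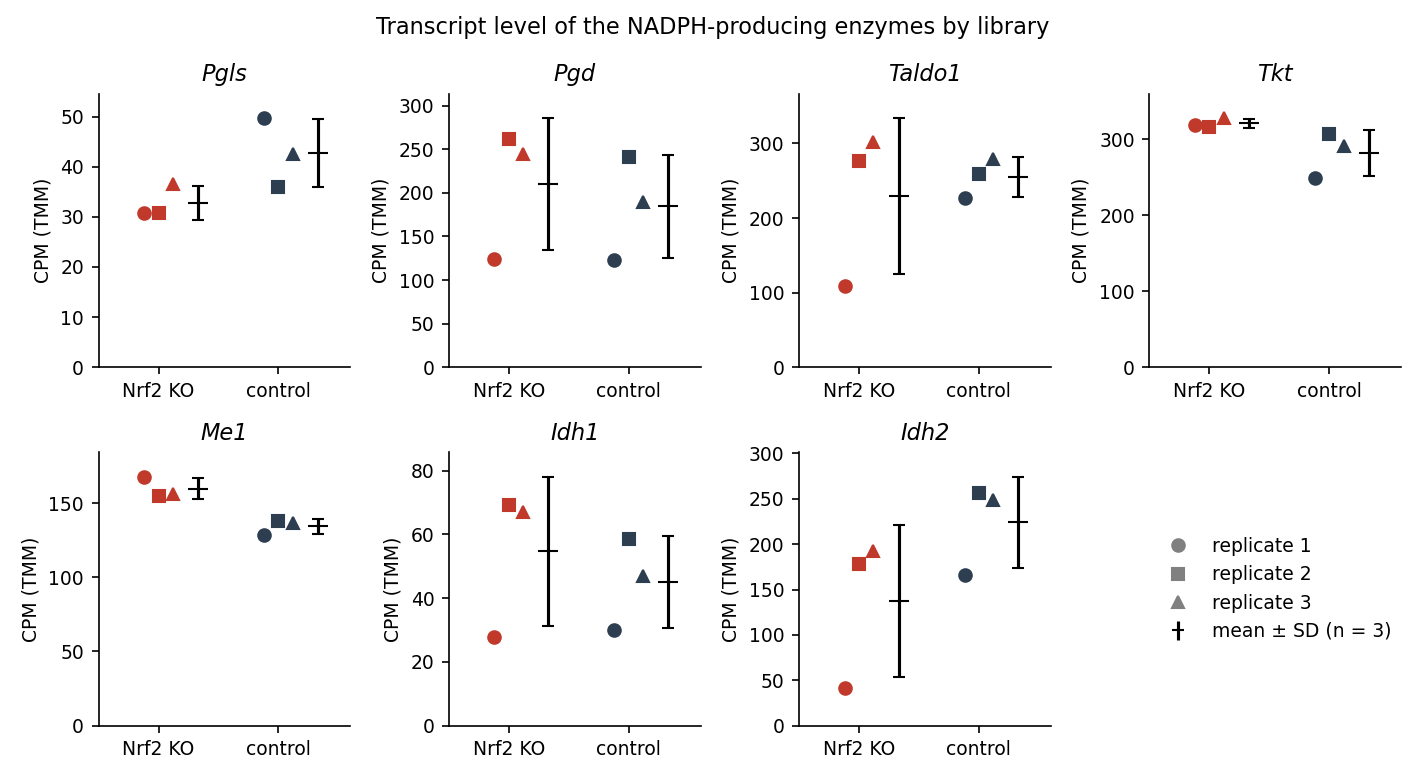
Level of each enzyme's transcript in CPM after TMM scaling (y axes, each from 0) in the 3 Nrf2 KO and 3 control libraries, with symbols for the replicate number and bars for mean ± SD (n = 3). Tkt and Me1 lie higher in every Nrf2 KO library than in any control library, whereas Pgd, Taldo1, Idh1 and Idh2 are lowest in replicate 1 of each group.

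The pentose phosphate enzymes are taken in the order of the pathway. Pgls, the lactonase that opens the ring of phosphogluconolactone, was at 30.7, 30.9 and 36.6 CPM in Nrf2 KO libraries 1, 2 and 3, against 49.7, 36.0 and 42.5 CPM in control libraries. Nrf2 KO replicate 3 lay just above control replicate 2, and the other Nrf2 KO libraries lay below all controls. The log2 fold change was -0.38 (SE 0.18, 95% interval -0.81 to 0.04, adjusted p = 0.243), and the Nrf2 KO library was the lower in 3 of 3 pairs of the same replicate number. Pgls had the smallest adjusted p of the 7.

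Pgd, phosphogluconate dehydrogenase, oxidises phosphogluconate to ribulose phosphate and releases NADPH. It was at 123.6, 262.2 and 244.5 CPM in Nrf2 KO libraries 1, 2 and 3, against 123.3, 240.9 and 189.1 CPM in control libraries. The replicate 1 libraries of both groups were low and nearly equal, all other libraries lay above them, and the groups overlapped. The fitted log2 fold change was 0.19 (SE 0.37, 95% interval -0.70 to 1.08, adjusted p = 0.815). With the replicate number as a block it was 0.17 with an SE of 0.13 (adjusted p = 0.420), and it was -0.035 without control replicate 1.

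Taldo1 and Tkt, transaldolase and transketolase, make no NADPH themselves and pass carbon units between sugar phosphates, which returns pentoses to glycolytic intermediates. Taldo1 was at 109.3, 276.6 and 301.5 CPM in Nrf2 KO libraries 1, 2 and 3, against 226.7, 258.5 and 279.5 CPM in control libraries. Nrf2 KO replicate 1 alone lay below the controls, and Nrf2 KO replicate 3 lay above all of them. The direction changed without 1 library: the log2 fold change was -0.15 (SE 0.38, 95% interval -1.08 to 0.77, adjusted p = 0.858) over the 6 libraries and 0.18 when Nrf2 KO replicate 1 was left out (adjusted p = 0.334).

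Tkt was the steadiest of the pentose phosphate transcripts in the Nrf2 KO group. It was at 319.2, 315.9 and 327.6 CPM in Nrf2 KO libraries 1, 2 and 3, against 248.7, 306.5 and 291.1 CPM in control libraries, with no overlap between groups. The highest Nrf2 KO library was 1.04 times the lowest, against 1.23 times in the control group and a median of 1.73 times over all tested genes in the Nrf2 KO group. The log2 fold change was 0.19 (SE 0.16, 95% interval -0.20 to 0.57, adjusted p = 0.546).

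Me1, the cytosolic malic enzyme that turns malate into pyruvate, was at 167.7, 155.0 and 156.1 CPM in Nrf2 KO libraries 1, 2 and 3, against 128.5, 138.0 and 136.6 CPM in control libraries. All Nrf2 KO libraries lay above all controls, with a mean of 159.6 ± 7.04 CPM in Nrf2 KO and 134.4 ± 5.15 CPM in control libraries (SD, n = 3 each). Groups did not overlap, with the Nrf2 KO group higher, for Me1 and Tkt among the 7 (17.1% of tested genes), and for 0 of the 7 with it lower (also 17.1%). The log2 fold change of Me1 was 0.25 (SE 0.13, 95% interval -0.08 to 0.57, adjusted p = 0.322), which as a fold is 1.19 with an interval of 0.949 to 1.49. Me1 came closest to a call by DESeq2 (adjusted p = 0.0811) and without both replicate 1 libraries (adjusted p = 0.0792 by edgeR).

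A window around 1 annotated start each of Me1 and Pgd is shown because it holds the letters TGACNNNGC. These are the core of the antioxidant response element, to which NRF2 with a small MAF protein is known to bind. RefSeq windows on GRCm38.p6, from 250 bases before to 50 after an annotated start, were matched by symbol for all 7 enzymes, which gave 10 windows. The motif, on either strand, was in 2 of the 10, beside 12.4% of all 32851 windows. Capitals mark the match. In Me1 it starts 6 bases before the first annotated start and also spells TGACTCA, the AP-1 motif, which 5.2% of all windows hold. The window of the second Me1 start has no match. In Pgd the motif starts 3 bases after the second annotated start, so it lies in transcribed sequence and not before that start. The window of the first Pgd start has no match. Whether the letters act as a response element was not tested for either gene.
Me1 (chr9:86695865-86696164, minus strand): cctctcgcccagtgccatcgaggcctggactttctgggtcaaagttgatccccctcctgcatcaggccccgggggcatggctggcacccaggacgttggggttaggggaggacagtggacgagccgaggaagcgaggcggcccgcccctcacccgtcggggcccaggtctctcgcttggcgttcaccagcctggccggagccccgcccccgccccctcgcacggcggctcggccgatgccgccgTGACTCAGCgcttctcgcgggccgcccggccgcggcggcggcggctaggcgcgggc
Pgd (chr4:149166033-149166332, minus strand): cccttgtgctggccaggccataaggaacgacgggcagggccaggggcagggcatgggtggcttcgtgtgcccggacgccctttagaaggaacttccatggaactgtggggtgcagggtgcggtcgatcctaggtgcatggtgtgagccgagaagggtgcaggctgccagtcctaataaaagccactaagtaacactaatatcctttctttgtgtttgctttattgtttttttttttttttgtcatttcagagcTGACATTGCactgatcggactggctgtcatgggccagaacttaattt
The windows of Pgls, Taldo1, Tkt, Idh1 and Idh2 held no TGACNNNGC, which says only that these letters are not in those 300 bases. Idh2, the enzyme with the lowest log2 fold change of the 7, is shown for comparison.
Idh2 (chr7:80115301-80115600, minus strand): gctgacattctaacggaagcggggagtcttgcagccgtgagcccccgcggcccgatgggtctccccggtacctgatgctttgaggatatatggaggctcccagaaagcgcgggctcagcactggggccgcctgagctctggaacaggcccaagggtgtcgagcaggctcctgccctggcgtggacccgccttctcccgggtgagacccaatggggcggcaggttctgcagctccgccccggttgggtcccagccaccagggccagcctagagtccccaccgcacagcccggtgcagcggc

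Idh1 and Idh2 carry out the same reaction, the oxidative decarboxylation of isocitrate with NADP, in different compartments, and their transcripts differed in direction. Idh1 was at 27.7, 69.2 and 67.2 CPM in Nrf2 KO libraries 1, 2 and 3, against 29.9, 58.5 and 47.1 CPM in control libraries. As with Pgd, the replicate 1 libraries of both groups were low and near each other, and Nrf2 KO replicates 2 and 3 lay above all controls. The log2 fold change was 0.28 (SE 0.41, 95% interval -0.72 to 1.27, adjusted p = 0.747), and it was positive but of very different size when 1 library was left out. It was 0.59 without Nrf2 KO replicate 1 (adjusted p = 0.125), 0.07 without Nrf2 KO replicate 2, 0.10 without Nrf2 KO replicate 3 and 0.05 without control replicate 1, with 0.51 and 0.31 without control replicates 2 and 3.

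Idh2 was at 41.1, 178.7 and 192.1 CPM in Nrf2 KO libraries 1, 2 and 3, against 166.2, 256.8 and 248.9 CPM in control libraries. Nrf2 KO replicate 1 had the lowest value by far, and the other Nrf2 KO libraries lay above control replicate 1 and below control replicates 2 and 3. Within the Nrf2 KO group the highest library was 4.67 times the lowest, against 1.54 times in the control group. The log2 fold change was -0.71 (SE 0.56, 95% interval -2.05 to 0.64, adjusted p = 0.507). With the replicate block it was -0.96 (SE 0.36, adjusted p = 0.128), and without Nrf2 KO replicate 1 it was -0.28 (adjusted p = 0.323).

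Leaving out both replicate 1 libraries gave the only calls among the 7 in the fits run. Idh1 was then higher in Nrf2 KO (log2 fold change 0.37, adjusted p = 0.0269) and Idh2 lower (-0.44, adjusted p = 0.00383), in a fit that called 24% of genes higher and 22.1% lower. That fit has 2 libraries a group, and the other 5 enzymes did not pass in it.

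**Figure D2:**
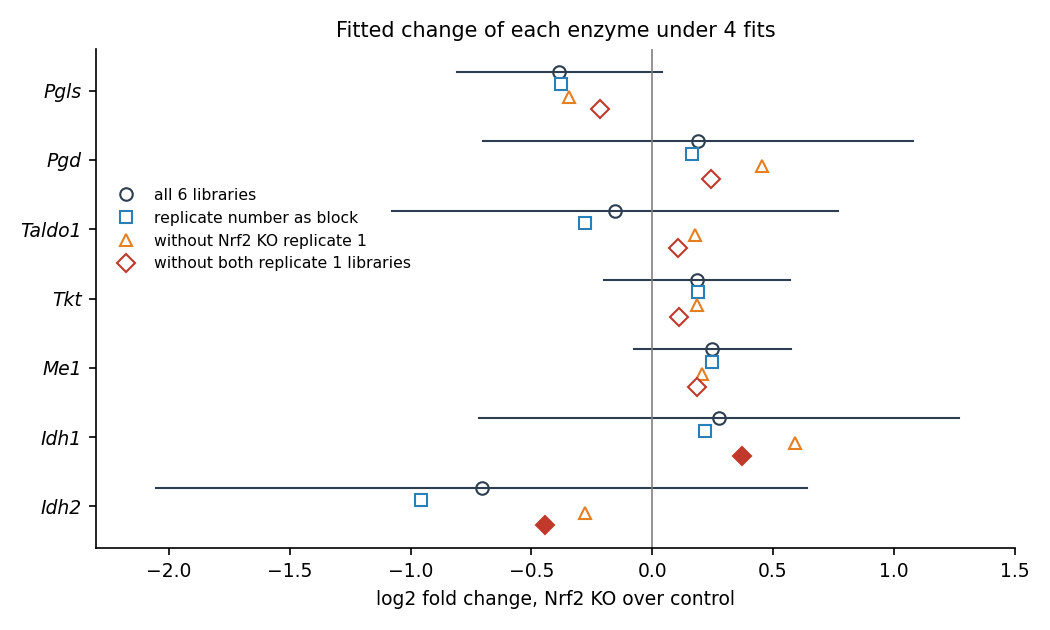
Log2 fold change of each enzyme, Nrf2 KO over control (x axis), by edgeR in 4 fits: all 6 libraries, with the 95% interval as a line, a block for replicate number, Nrf2 KO replicate 1 left out, and replicate 1 of each group left out. Filled symbols have an adjusted p under 0.05, which only Idh1 (0.37) and Idh2 (-0.44) reach, without both replicate 1 libraries.

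The ratio of Idh2 to Idh1 counts within a library does not depend on how libraries are scaled. It was 1.49, 2.58 and 2.86 in Nrf2 KO libraries 1, 2 and 3, against 5.56, 4.39 and 5.29 in control libraries, and the groups did not overlap. On the log2 scale the ratio averaged 1.15 ± 0.51 in Nrf2 KO and 2.34 ± 0.18 in control libraries (SD, n = 3 each). The difference, Nrf2 KO minus control, was -1.19 (exact permutation p = 0.1, two-sided, the smallest p that 3 libraries against 3 allow). Within replicate numbers 1, 2 and 3 it was -1.90, -0.76 and -0.89, lower in Nrf2 KO in 3 of 3 pairs (exact sign-flip permutation p = 0.25, two-sided, the smallest that 3 pairs allow). The unpaired difference was -0.89 when Nrf2 KO replicate 1 was left out and -0.83 when control replicate 1 was left out as well. This ratio was chosen after the values of the enzymes were seen, so neither p-value counts as support for a difference. How often ratios of other gene pairs separate the groups was not tested.

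Compared within the same replicate number, the enzymes fell into different patterns. The labels do not state this pairing, and the counts do not settle it for numbers 2 and 3. Idh2 was lower in Nrf2 KO in 3 of 3 pairs, at 0.248, 0.696 and 0.772 times the control library of the same number. Pgls was also lower in 3 of 3, at 0.618, 0.858 and 0.860 times. Me1 was higher in 3 of 3, at 1.31, 1.12 and 1.14 times, as were Tkt, at 1.28, 1.03 and 1.13 times, and Pgd, whose first ratio was 1.00. Taldo1 and Idh1 differed in sign between pairs, with ratios of 0.482, 1.07 and 1.08 for Taldo1 and 0.926, 1.18 and 1.43 for Idh1. Over all tested genes 30.3% were higher and 30.5% lower in 3 of 3 pairs, so the counts of 3 and 2 among the 7 are near that background.

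**Figure D3:**
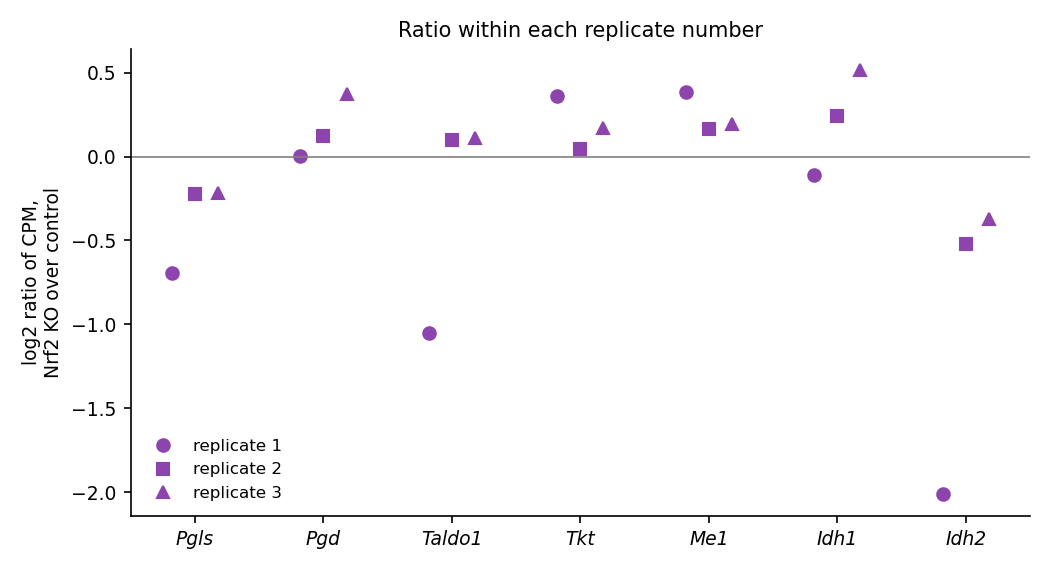
Log2 ratio of CPM, Nrf2 KO over the control library of the same replicate number (y axis), for each enzyme (x axis), with a symbol for each of the 3 numbers. The replicate 1 ratios of Idh2 (-2.01) and Taldo1 (-1.05) lie farthest from 0, and those of Tkt (0.36) and Me1 (0.38) lie above the other ratios of their gene.

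Per transcript length, the order of the enzymes can be read from the authors' deposited table, which gives FPKM (fragments per kilobase of transcript, scaled to depth) as 1 value per group with no spread. In the authors' deposited table the Nrf2 KO group had 154 FPKM for Taldo1, 124 for Tkt, 79.9 for Pgd, 66.0 for Idh2, 42.1 for Me1, 22.6 for Idh1 and 11.2 for Pgls. The control group had, in the authors' deposited table, 175 FPKM for Taldo1, 110.5 for Idh2, 109.5 for Tkt, 71.5 for Pgd, 35.7 for Me1, 17.9 for Idh1 and 14.7 for Pgls. Idh2 thus came after Pgd in the Nrf2 KO column and just before Tkt in the control column, and the other 6 kept their order. Each of these lay above the median of the tested genes, 7.44 FPKM in Nrf2 KO and 7.02 FPKM in control in the authors' deposited table. Neighbours in this order cannot be tested against a spread between libraries, because the table holds 1 value a group. The order also depends on the reference used, which is not settled: the cells are mouse, the symbols rat and the stated build hg18.

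Across the 6 libraries, 2 pairs of enzymes had close profiles and the other 3 enzymes were close to no other member. Likeness was measured as the root mean square difference of log2 CPM centred on each gene's mean, over the 7 enzymes and the tested genes of the companion lists below. Tkt and Me1 differed by 0.077 and Pgd and Idh1 by 0.093, the smallest differences among the enzymes, and the next smallest was 0.34. Idh2 lay 0.45 to 0.99 from the other 6. Of the 102 other genes compared, the nearest to both Tkt (0.066) and Me1 (0.052) was Nadk, the kinase that makes NADP from NAD. The nearest to Pgd was the phosphofructokinase Pfkm (0.064), to Pgls the biliverdin reductase Blvrb (0.080), to Taldo1 the aldehyde reductase Akr1a1 (0.097), and to Idh1 it was Pgd. Idh2 was nearest to Shmt1, the cytosolic serine hydroxymethyltransferase (0.18).

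Of 96 tested genes around these enzymes, in 7 lists, 4 were higher (4.17%) and 5 lower (5.21%) with all 6 libraries, beside 4.83% and 3.45% of all genes tested. A block for replicate number gave 7 higher and 12 lower (7.29% and 12.5%), beside 10.4% and 7.92% of all genes. For the other rules used in each list below, the shares of all genes were 13.4% higher and 11.6% lower by unadjusted p. They were 10.9% and 9.02% by DESeq2, and 5.14% and 4.12% by limma-voom. Genes below that only the block calls were named after their values were seen.

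Of 10 tested genes of other pentose and sugar phosphate steps, 1 was higher and 0 lower, with a median log2 fold change of 0.02. At an unadjusted p under 0.05 there were 2 higher and 0 lower, DESeq2 called 2 and 0, while the block and limma-voom each called 1 and 0. The gene that rose was Pgm2, of the phosphoglucomutase family, at 54.3 ± 3.15 CPM in Nrf2 KO and 32.5 ± 3.35 CPM in control libraries (log2 fold change 0.74, adjusted p = 0.0299). H6pd, which makes NADPH in the endoplasmic reticulum by the oxidative pentose phosphate steps, was at 39.7 ± 4.66 CPM in Nrf2 KO and 44.4 ± 2.13 CPM in control libraries (adjusted p = 0.572).

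Of 12 tested genes of other NADP-linked enzymes, NADP synthesis and neighbouring malate and folate steps, edgeR called 0 higher and 0 lower, with a median of -0.15. Not all enzymes of this list use NADP, Shmt1 and Shmt2 among them, so its calls are not a count of NADPH sources. By unadjusted p there were 0 higher and 3 lower. The block and DESeq2 each gave 0 and 3, and limma-voom gave 0 and 1. The genes of this list with the highest mean CPM were Glud1, glutamate dehydrogenase, at 338.9 ± 139 CPM in Nrf2 KO and 265.2 ± 37.3 CPM in control libraries (adjusted p = 0.608), and Shmt2. Shmt2, the mitochondrial serine hydroxymethyltransferase, was at 214.6 ± 12.1 CPM in Nrf2 KO and 316.7 ± 12.1 CPM in control libraries. Its log2 fold change was -0.56 (adjusted p = 0.0717, and 0.0401 with the block). The block also called Me2, the mitochondrial malic enzyme, at 62.2 ± 31.9 CPM in Nrf2 KO and 175.8 ± 48.7 CPM in control libraries (block adjusted p = 0.0158). The other was Mthfd2, a mitochondrial folate dehydrogenase, at 97.5 ± 10.5 CPM in Nrf2 KO and 159.3 ± 20.0 CPM in control libraries (block adjusted p = 0.0189).

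Of 16 genes of the citrate, malate and Krebs cycle steps, 0 were higher and 1 lower, with a median of -0.18. By unadjusted p there were 0 and 2, DESeq2 called 0 and 2, while the block and limma-voom each called 0 and 1. The gene that fell was Pc, pyruvate carboxylase, at 41.1 ± 5.22 CPM in Nrf2 KO and 72.9 ± 7.09 CPM in control libraries (log2 fold change -0.83, adjusted p = 0.0287). Of 17 glycolysis genes, 0 were higher and 1 lower, with a median of -0.30. By unadjusted p there were 1 higher and 4 lower, DESeq2 and limma-voom called 1 and 1, and the block called 0 and 2. The gene that fell was Slc2a1, the glucose transporter GLUT1, at 15.8 ± 2.08 CPM in Nrf2 KO and 27.2 ± 1.79 CPM in control libraries (-0.79, adjusted p = 0.0369). The block added the phosphofructokinase Pfkp, at 54.5 ± 21.7 CPM in Nrf2 KO and 107.2 ± 26.5 CPM in control libraries (block adjusted p = 0.0178).

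Among enzymes that spend NADPH, 0 of 13 redox genes were higher and 1 lower, with a median of -0.21. By unadjusted p there were 1 higher and 2 lower, DESeq2 and limma-voom called 0 and 1, and the block called 1 and 2. The gene that fell was Cyba, the membrane subunit p22phox of NADPH oxidases, at 3.24 ± 0.60 CPM in Nrf2 KO and 8.90 ± 1.29 CPM in control libraries (log2 fold change -1.45, adjusted p = 0.0175). The block added Nqo1, a quinone reductase and known NRF2 target, at 352.2 ± 200.6 CPM in Nrf2 KO and 871.7 ± 263.9 CPM in control libraries (block adjusted p = 0.0315, and 0.204 with no block). It also added Aifm2, a ubiquinone reductase, at 49.9 ± 12.1 CPM in Nrf2 KO and 32.1 ± 4.93 CPM in control libraries (block adjusted p = 0.0363).

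Of 16 biosynthetic genes, 1 was higher and 0 lower, with a median of 0.08. By unadjusted p there were 2 and 2, DESeq2 called 2 and 1, limma-voom 1 and 0, and the block 2 and 1. The gene that rose was Sqle, the squalene epoxidase of sterol synthesis, at 242.2 ± 46.0 CPM in Nrf2 KO and 132.5 ± 11.6 CPM in control libraries (0.87, adjusted p = 0.0468). The block call that was lower was Pycr1, a proline synthesis enzyme, at 10.0 ± 5.42 CPM in Nrf2 KO and 27.6 ± 7.12 CPM in control libraries (block adjusted p = 0.0233).

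Of 12 regulators, 2 were higher, Nfe2l2 and its small MAF partner Maff (log2 fold change 0.92, adjusted p = 0.0287), and 2 lower, with a median of 0.25. By unadjusted p there were 3 and 3, DESeq2 and limma-voom called 2 and 3, and the block 3 and 3. Those that fell were Mafk, another small MAF protein (-1.15, adjusted p = 0.00565), and Srebf1, a transcription factor of lipid synthesis genes. Srebf1 was at 39.1 ± 1.14 CPM in Nrf2 KO and 67.1 ± 1.57 CPM in control libraries (-0.78, adjusted p = 0.0160). The block added Bach1, a repressor at antioxidant response elements, at 31.8 ± 22.03 CPM in Nrf2 KO and 11.1 ± 6.66 CPM in control libraries (block adjusted p = 0.0472). It also added Myc, a growth regulator, at 66.7 ± 25.4 CPM in Nrf2 KO and 158.0 ± 26.8 CPM in control libraries (block adjusted p = 0.0114). Keap1, which marks NRF2 for degradation, was at 38.6 ± 5.71 CPM in Nrf2 KO and 35.2 ± 2.84 CPM in control libraries (adjusted p = 0.687).

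Of the genes called in these lists with all libraries, Mafk lost the call without control replicate 3 (adjusted p = 0.0611). Pgm2, Pc, Slc2a1, Cyba, Sqle, Srebf1 and Maff lost it without any 1 of the libraries other than Nrf2 KO replicate 1, with adjusted p from 0.0594 to 0.232. Leaving out Nrf2 KO replicate 1 gave 16 higher and 13 lower over the lists (16.7% and 13.5%), beside 15.6% and 14.5% of all genes tested. Leaving out replicate 1 of each group gave 25 and 27 (26.0% and 28.1%), beside 24% and 22.1% of all genes.

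**Figure D4:**
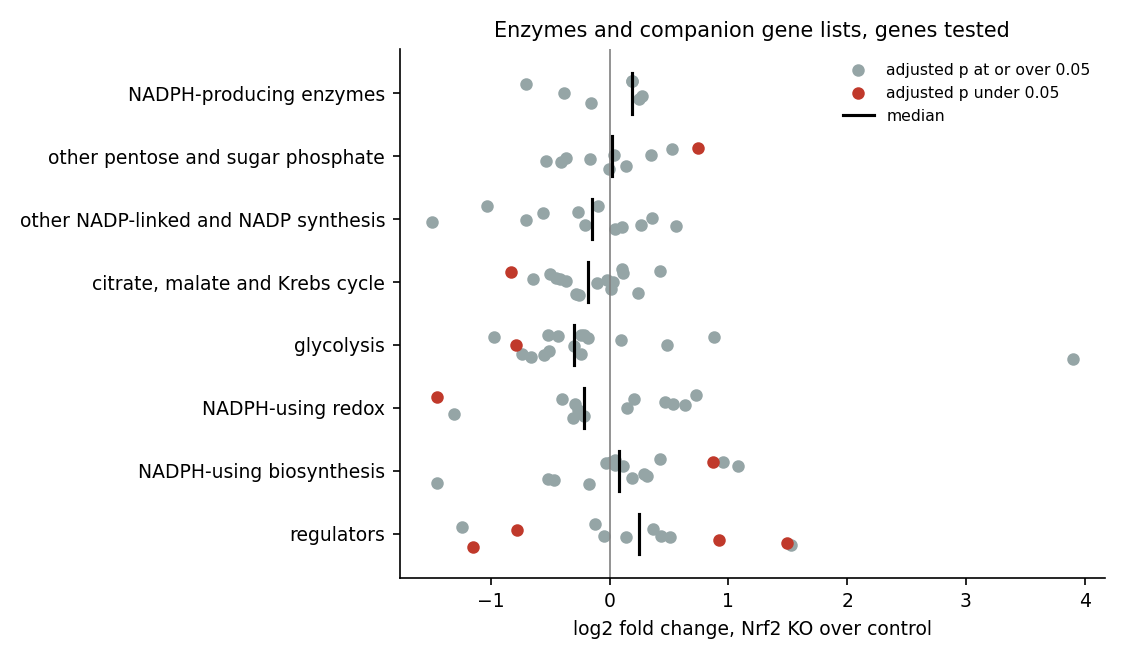
Log2 fold change, Nrf2 KO over control (x axis), of each tested gene of the 7 NADPH-producing enzymes (top) and of each companion list, with the median as a black bar and genes with an adjusted p under 0.05 in red. The enzymes hold no red point, and their median of 0.19 lies between those of the glycolysis (-0.30) and regulator (0.25) lists.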

How the data were processed

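Poly(A)-selected RNA of 6 samples was sequenced, per the labels' protocols. The authors deposited raw counts per gene symbol for each library and FPKM as 1 value per group. The submitters' processing notes list HISAT2, fastp, FastQC and DESeq2 1.34.0, without their roles, and the build hg18. Counter, strand setting and annotation were not given in the sources used here. Symbols follow rat nomenclature (650 begin with RGD, 0 with H2-) although the labels give mouse cells.

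The model for the counts was edgeR 4.0.16 (R 4.3.3): filterByExpr by group (minimum count 10, total 15), TMM, and the robust two-sided quasi-likelihood test. Benjamini-Hochberg adjustment ran over 14618 genes, threshold 0.05, and levels are CPM with TMM scaling. Alternatives were DESeq2 1.42.0, limma-voom (limma 3.58.1), other scalings and filters, the replicate block, and fits without libraries. The fits were tested on simulated data with the same dispersion for every gene and no replicate effect or outlying library. That test does not cover the spread seen in these libraries. Deviations from group means correlated at 0.754, 0.696 and 0.310 for numbers 1, 2 and 3, all over 0.1, so the numbers were taken as pairs, from the counts alone. Between different numbers, Nrf2 KO replicate 3 correlated at 0.539 with control replicate 2, and Nrf2 KO replicate 2 at 0.278 with control replicate 3. Those of replicate 1 with numbers 2 and 3 ran from -0.749 to -0.318. Deviations within a group sum to 0, so with replicate 1 alike in both groups, numbers 2 and 3 lean to positive correlations under any pairing. The check thus sets replicate 1 apart but does not tell numbers 2 and 3 apart, and the limit of 0.1 could not decide their pairing.

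Members, lists, tests and alternatives were chosen with earlier results of these data known. Named genes were the 7 enzymes, Nfe2l2, Keap1, H6pd and, in each list, up to 4 called genes with the smallest p, or, in a list with no call, the 2 of highest mean CPM over the 6 libraries. Likeness took the nearest gene by root mean square difference of log2 CPM (prior count 2). The lists were edited after values were seen, and not every gene that this rule takes is reported here. The Idh2 to Idh1 ratio, H6pd's place among the sugar phosphate genes and an alias in the Krebs list were also set then. Promoters are RefSeq's on GRCm38.p6, not the files' build.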

Additional observations from a re-analysis of the deposited data

How the results depend on the processing

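With all 6 libraries no alternative scaling, filter or tool called any of the 7 enzymes, and the lowest adjusted p in those was 0.0811 (Me1, DESeq2). Of 105 refits of single enzymes under 15 alternatives, 99 kept direction and side of the threshold. The exceptions were Taldo1, at 0.18 without Nrf2 KO replicate 1 and 0.11 without both replicate 1 libraries, Pgd, at -0.0022 without Nrf2 KO replicate 2 and -0.035 without control replicate 1, and Idh1 (0.37) and Idh2 (-0.44), called without both replicate 1 libraries, where 1 enzyme was higher and 1 lower. Leaving out 1 library gave a range of -0.035 to 0.45 for Pgd and -0.40 to 0.18 for Taldo1. Nfe2l2 lost its call with upper-quartile scaling (1.45) and library size alone (1.499), and ranged from 1.15 to 1.71 without 1 library. The replicate block changed no call among the 7 enzymes.

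Called genes numbered 706 higher and 505 lower. They were 1598 and 1318 by DESeq2, 1520 and 1158 with the replicate block, and 3540 and 3253 without both replicate 1 libraries. Without 1 library they were 139 to 2323 higher and 57 to 2162 lower. The companion lists had 4 and 5 calls. They gave 7 and 11 by DESeq2 (7.29% and 11.5%, beside 10.9% and 9.02% of all genes) and 7 and 12 with the block. They gave 25 and 27 without both replicate 1 libraries, 0 to 16 and 0 to 13 without 1 library, and 2 higher with no filter on low counts. The cause of these shifts was not tested. Counts of 868 to 15514 per library lay behind the enzymes' levels.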
